A study of Mus musculus with 12 samples.

Results

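Splicing factors and proteins of the small nuclear ribonucleoproteins (snRNPs) were described in knockout and control cells of the mouse mammary tumour lines 4T1 and EMT6. The genes were chosen by symbol, as those that begin with Snrp, Sf3a, Sf3b, Lsm, Prpf, Srsf, Hnrnp or U2af, with pseudogene symbols that hold "-ps" left out, and by level, with 1 FPKM or more on average in the 6 libraries of a line. Of 56691 listed genes, 84 matched by symbol, and the same 79 of them reached 1 FPKM in each line. They comprise 47 genes with snRNP symbols (Snrp, Sf3a, Sf3b, Lsm, Prpf), 10 SR protein genes (Srsf), 20 hnRNP genes (Hnrnp) and both U2AF subunits. The study sequenced messenger RNA in 12 libraries, 3 each of 4T1 KO cells, 4T1 control cells, EMT6 KO cells and EMT6 control cells (4 groups). The KO cells carry the label sgNEDD4, which names a guide against the ubiquitin ligase gene Nedd4, and the control genotype is labelled WT. Cells grew in DMEM with serum, no treatment is labelled, and the batch label is the same throughout. The sources used here do not say whether replicates were separate cultures, whether KO cells are a pool or a clone, or whether control cells carry a guide. The p-values therefore measure the spread between these libraries, which may be technical.

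Pre-mRNA splicing is carried out by the spliceosome, which is assembled on each intron from the U1, U2, U4, U5 and U6 snRNPs. A ring of Sm proteins holds each of the U1, U2, U4 and U5 RNAs, a ring of LSm proteins holds U6, and particle-specific proteins recognise the splice sites or drive the rearrangements that lead to catalysis. SR proteins mostly bind exonic enhancers and recruit the machinery, whereas hnRNP proteins coat nascent transcripts and often repress exons, so the balance between both families shifts alternative splicing in proliferating and tumour cells.

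The targeted gene Nedd4 had 24.7, 24.9 and 25.3 FPKM in 4T1 KO libraries, against 94.4, 97.6 and 93.5 FPKM in 4T1 control libraries (log2 change -2.01 ± 0.04 SE, edgeR adjusted p = 6.19e-21) and 12.1, 11.5 and 12.1 FPKM in EMT6 KO libraries, against 123, 121 and 117 FPKM in EMT6 control libraries (log2 change -3.34 ± 0.06 SE, edgeR adjusted p = 5.6e-16). Total counts ran from 13705612 to 19761604 per library. The epithelial markers Krt8, Krt18, Epcam and Cdh1 were present in 4T1. In EMT6, Cdh1 was at 0 to 0.02 FPKM and Vim at 576 to 887 FPKM. Values of Krt8, Krt18 and Epcam in EMT6 and of Vim in 4T1 are not given here. No contrast of cell type between the lines is therefore drawn. Of the leukocyte markers Ptprc, Cd3e, Adgre1 and Itgam, Cd3e was at 0 in all 12 libraries, and the largest value of any was 0.72 FPKM. The nuclear RNA Malat1 was at 479 to 560 CPM in 4T1 KO libraries, against 69.3 to 155 CPM in 4T1 control libraries, and at 158 to 200.2 CPM in EMT6 KO libraries, against 189 to 449.6 CPM in EMT6 control libraries. Its part in the results below was not tested.

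In 4T1, 44 of the 79 splicing genes fell and 8 rose in KO cells by edgeR's quasi-likelihood test at an adjusted p under 0.05, adjusted over all 13313 genes tested. Among all tested genes of that line 29.0% fell and 28.0% rose (57.0% in all). In a culture, fewer cells with a transcript and less of it in each cell cannot be told apart. The median log2 change of the 79 genes was -0.18, against 0.00 for all tested genes. In EMT6 the balance lay the other way, with 32 of 79 higher and 11 lower in KO cells, where 27.9% of 12890 tested genes were higher and 28.2% lower (56.0% in all). The median log2 change there was 0.12, against 0.00 for all tested genes. KO and control libraries did not overlap in FPKM for 55 of the 79 genes in 4T1, where 61.6% of all tested genes did not overlap. In EMT6 they did not overlap for 56 of 79, where the share of all tested genes was 62.3%. The margin over all tested genes was not tested. Scaled to total counts alone, with no correction for composition, 16 of the 79 genes were higher and 36 lower in 4T1 KO cells. That scaling also raised the share of all called genes that were higher in 4T1 KO cells to 61.2%, against 49.1% with the scaling used throughout. With no filter on low counts, 6 in place of 11 splicing genes were called lower in EMT6. Of all tested genes, 3398 of 23721 were then lower there, in place of 3633 of 12890.

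**Figure D1:**
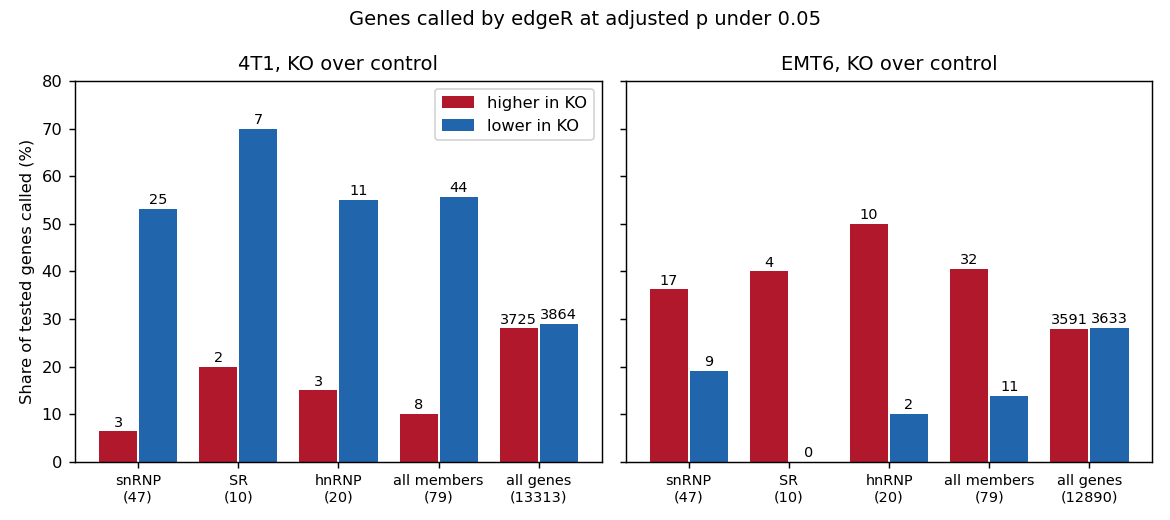
Share of tested genes (%) called higher (red) or lower (blue) in KO cells by edgeR at an adjusted p under 0.05, in 4T1 (left panel) and EMT6 (right panel); numbers above the bars are gene counts. Blue bars of the splicing genes stand above red in 4T1, 44 against 8, and red above blue in EMT6, 32 against 11, whereas both bars of all tested genes are near 28%.

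The difference between the lines was tested directly as the KO effect in EMT6 minus the KO effect in 4T1, in 1 edgeR fit over the 12 libraries. Of the 79 genes, 40 had a larger (more positive) effect in EMT6 and 9 a smaller one at an adjusted p under 0.05, where 29.7% and 30.2% of 12006 tested genes did (59.9% in all). The median difference was 0.24 on the log2 scale for the splicing genes and -0.01 for all tested genes. A fall in 4T1 together with a rise in EMT6 was called for 20 of the 79 genes (25.3%), against 10.2% of all genes tested in both lines. The reverse pair of calls was found for 2 genes (2.53%, against 9.42%). Lower in both lines were 6 genes (7.59%, against 7.85%), and higher in both were 2 (2.53%, against 7.05%). Neither line gave a call for 14 of the 79.

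**Figure D2:**
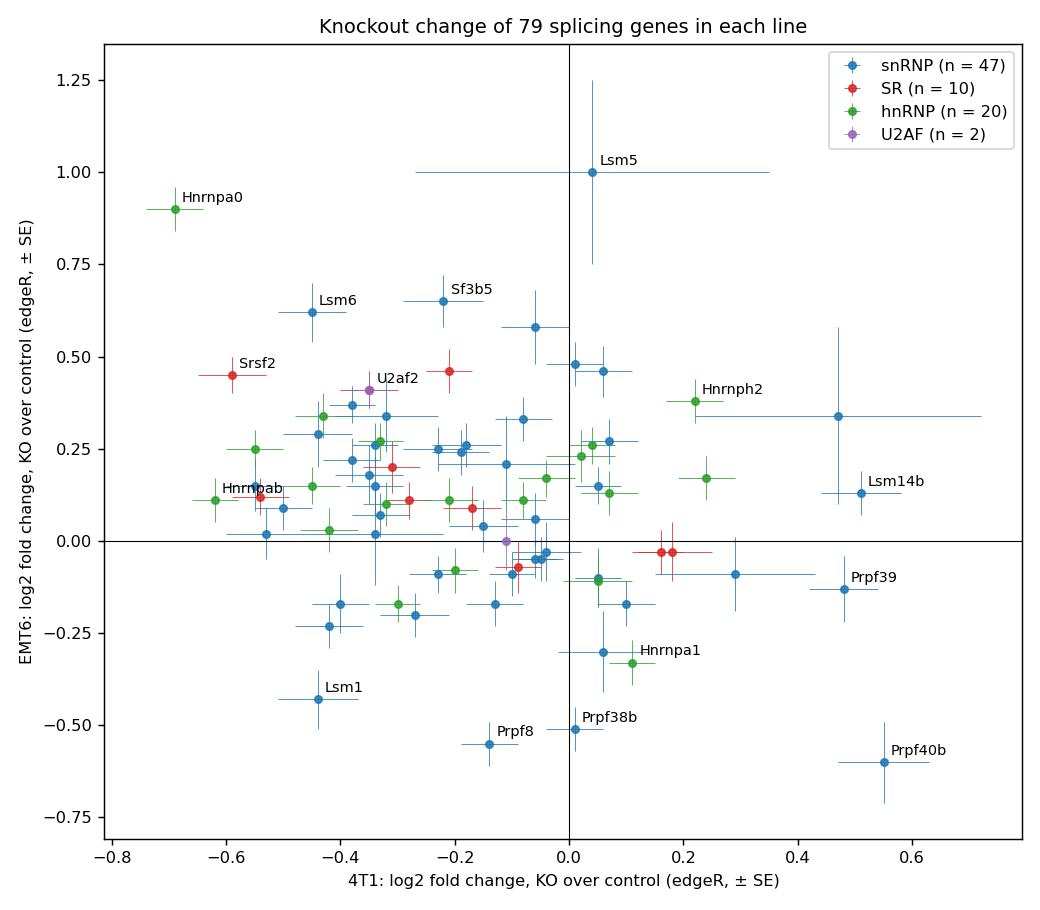
Log2 fold change of KO over control in 4T1 (x axis) and EMT6 (y axis) for the 79 genes, with 1 SE from edgeR on each axis and colours for the gene groups. The upper left quadrant, lower in 4T1 and higher in EMT6, holds Hnrnpa0 at -0.69 and 0.90 and Srsf2 at -0.59 and 0.45, and Prpf40b lies farthest to the lower right at 0.55 and -0.60.

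Compared by class, the SR genes had the largest share of falls in 4T1 and had no fall in EMT6. In 4T1, 7 of 10 SR genes fell and 2 rose (median log2 change -0.24), 11 of 20 hnRNP genes fell and 3 rose (-0.21), and 25 of 47 snRNP genes fell and 3 rose (-0.14). Among all tested genes of 4T1, 29.0% fell and 28.0% rose. In EMT6, 4 SR genes rose and 0 fell (median 0.11), 10 hnRNP genes rose and 2 fell (0.14), and 17 snRNP genes rose and 9 fell (0.09). Among all tested genes of EMT6, 27.9% rose and 28.2% fell. The difference between the lines was called positive for 7 of 10 SR genes, 12 of 20 hnRNP genes and 20 of 47 snRNP genes, and negative for 1, 1 and 7. It was positive for 29.7% and negative for 30.2% of all tested genes. No test between the classes was made. With scaling to total counts alone, 9 snRNP and 5 hnRNP genes were called higher in 4T1, and without 4T1 KO replicate 1 the snRNP count was 5. Of all tested genes, 4658 of 13313 were higher with that scaling and 3496 of 13531 without that library. As the mean of log2(FPKM + 1) over its genes, the SR class was at 5.33, 5.31 and 5.26 in 4T1 KO libraries, against 5.46, 5.41 and 5.47 in 4T1 control libraries, and at 5.42, 5.43 and 5.40 in EMT6 KO libraries, against 5.23, 5.25 and 5.27 in EMT6 control libraries. The hnRNP class was at 5.64, 5.62 and 5.58 in 4T1 KO libraries, against 5.73, 5.73 and 5.72 in 4T1 control libraries, and at 5.66, 5.68 and 5.68 in EMT6 KO libraries, against 5.55, 5.53 and 5.50 in EMT6 control libraries. For both classes every KO library lay below every control library in 4T1 and above every control library in EMT6. The snRNP class was at 4.38, 4.41 and 4.41 in 4T1 KO libraries, against 4.46, 4.41 and 4.49 in 4T1 control libraries, where KO replicate 2 and control replicate 2 met. In EMT6 it was at 4.48, 4.48 and 4.48 in EMT6 KO libraries, against 4.43, 4.41 and 4.34 in EMT6 control libraries, without overlap. Within the snRNP class the 13 Prpf genes had 2 higher and 6 lower in EMT6, and the 12 Snrp, 3 Sf3a and 6 Sf3b genes had 10 higher and 0 lower there. The 13 Lsm genes had 5 higher and 3 lower, and the 3 lower ones (Lsm1, Lsm11 and Lsm12) lie outside the U6 ring. This class was set by symbol, so it also holds genes that are not spliceosomal snRNP proteins, such as Lsm1 and the pseudogene Snrpert.

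**Figure D3:**
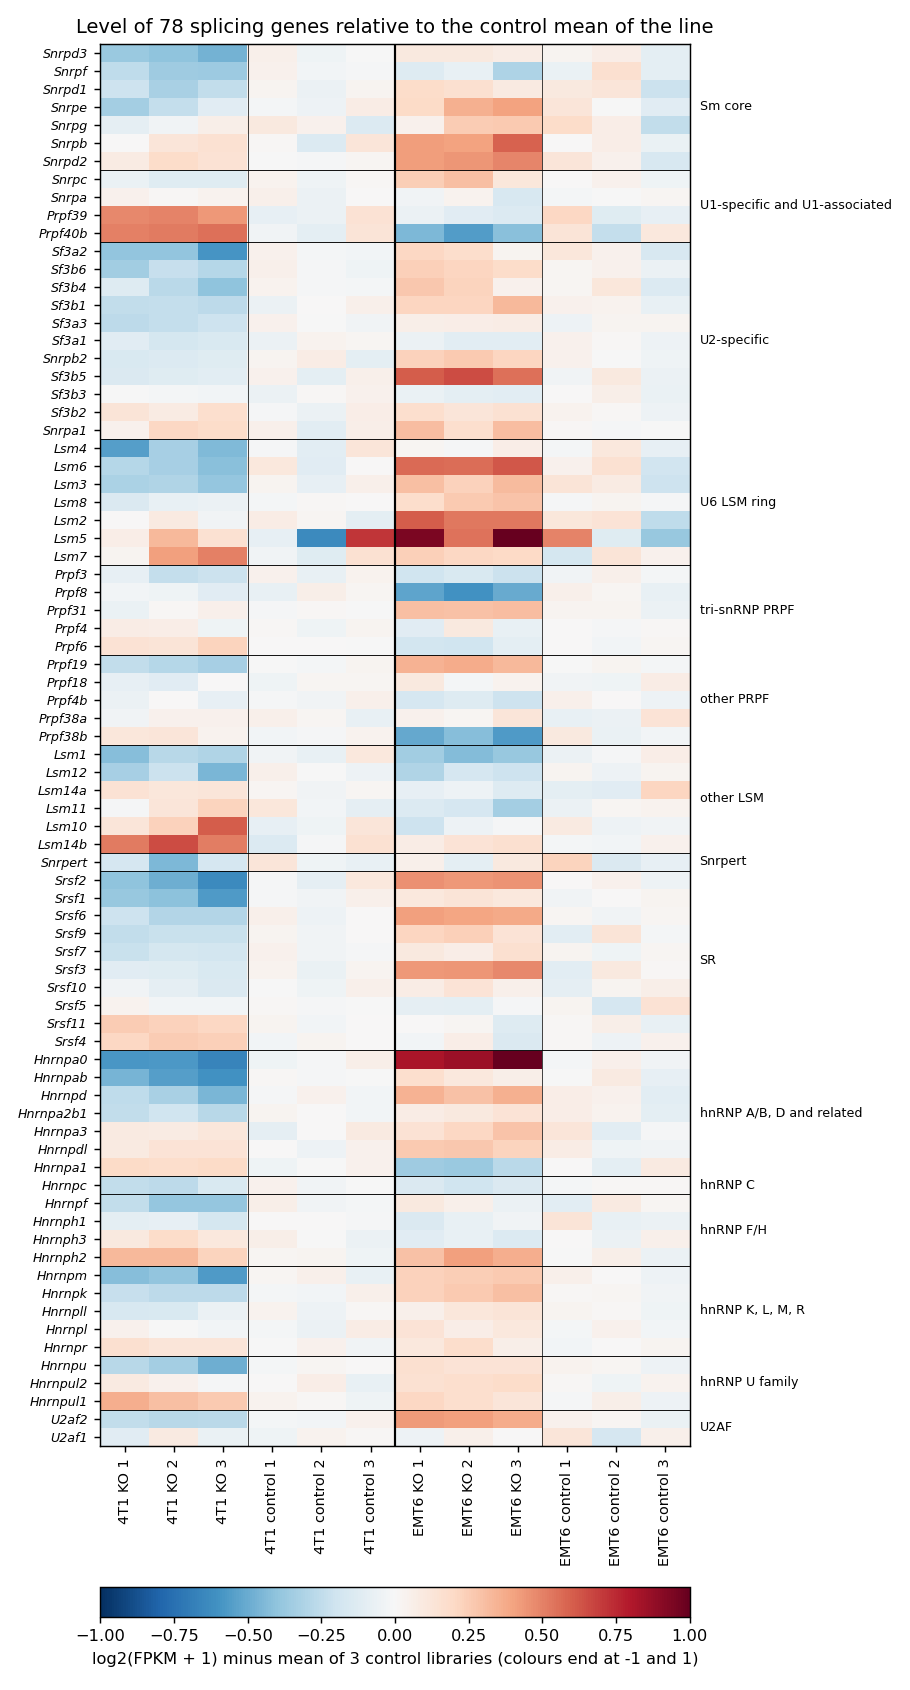
Level of 78 of the 79 genes (rows, by role) in each of the 12 libraries (columns), as log2(FPKM + 1) minus the mean of the 3 control libraries of the line; blue is lower and red is higher, and colours end at -1 and 1. KO columns of 4T1 are mostly blue and those of EMT6 mostly red in the U2, LSm ring, SR and hnRNP rows, with Prpf8, Prpf38b and Hnrnpa1 blue in EMT6 KO libraries.

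The Sm ring is made of 7 proteins shared by the U1, U2, U4 and U5 particles. In 4T1 KO cells 4 of the 7 genes (Snrpd1, Snrpd3, Snrpe and Snrpf) fell and 0 rose, and in EMT6 KO cells 3 (Snrpb, Snrpd2 and Snrpe) rose and 0 fell, so that only Snrpe was called in both lines. Of all tested genes, 29.0% fell and 28.0% rose in 4T1, and 27.9% rose and 28.2% fell in EMT6. Snrpd3 had 33.8, 33.1 and 31.4 FPKM in 4T1 KO libraries, against 45.5, 42.7 and 43.8 FPKM in 4T1 control libraries, with no overlap. Its log2 change was -0.50 ± 0.05, adjusted p = 3.74e-09 by edgeR. Snrpd3 in EMT6 had 34.5, 34.5 and 33.96 FPKM in EMT6 KO libraries, against 32.8, 33.8 and 30.1 FPKM in EMT6 control libraries, a log2 change of 0.09 ± 0.06, adjusted p = 0.205 by edgeR that did not pass the test. Snrpb, which was among the most abundant snRNP transcripts, had 110.3, 109 and 125 FPKM in EMT6 KO libraries, against 82.7, 86.3 and 78.6 FPKM in EMT6 control libraries, with all KO libraries above all control libraries (0.48 ± 0.06, adjusted p = 8.25e-06 by edgeR). In 4T1 the Snrpb libraries overlapped, with 82.8, 89.95 and 91.5 FPKM in 4T1 KO libraries, against 83.1, 74.9 and 90.0 FPKM in 4T1 control libraries and a log2 change of 0.01 that did not pass. Snrpf fell in 4T1 by 0.40 on the log2 scale, with 75.9, 70.5 and 70.2 FPKM in 4T1 KO libraries, against 93.1, 88.6 and 89.7 FPKM in 4T1 control libraries, but 85.4% of its exonic bases are overlapped on the opposite strand by exons of other genes, and the strand setting of the counting is unknown here. In EMT6 Snrpf was not called, and became called lower without control replicate 3 (-0.23, adjusted p = 0.0251 by edgeR). Snrpe shares 279 bases at 98.9% identity with Snrpert, which carries an Snrp symbol but is annotated as its processed pseudogene, so the reads of both are uncertain.

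U1 recognises the 5′ splice site, and the genes of its proteins did not move as 1 group. Snrpc, which steadies the pairing of U1 with the 5′ splice site, fell in 4T1 (-0.19 ± 0.05, adjusted p = 0.00178 by edgeR) and rose in EMT6 (0.24 ± 0.06, adjusted p = 0.00443 by edgeR). Snrpa, which binds a stem-loop of U1 RNA, was called in neither line. Of the homologues of yeast U1-associated factors, Prpf40b and Prpf39 rose in 4T1. So did Snrnp70, a U1 protein gene outside the symbol rule (0.33 ± 0.05, adjusted p = 2.23e-06 by edgeR). Prpf40b had 6.35, 6.4 and 6.6 FPKM in 4T1 KO libraries, against 4.05, 3.84 and 4.67 FPKM in 4T1 control libraries. In EMT6, Prpf40b had 3.31, 3.0 and 3.42 FPKM in EMT6 KO libraries, against 5.45, 3.99 and 5.35 FPKM in EMT6 control libraries. The groups did not overlap in either line, and the direction was opposite (0.55 ± 0.08, adjusted p = 3.76e-06 by edgeR in 4T1, -0.60 ± 0.11, adjusted p = 0.000306 by edgeR in EMT6, difference -1.17 ± 0.14, adjusted p = 3.19e-07 by edgeR). Prpf39 had 7.0, 7.09 and 6.74 FPKM in 4T1 KO libraries, against 4.4, 4.5 and 5.31 FPKM in 4T1 control libraries (0.48 ± 0.06, adjusted p = 5.32e-07 by edgeR), and in EMT6 its log2 change of -0.13 did not pass the test.

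U2 binds the branch point through the SF3A and SF3B complexes, and 11 genes of the rule are specific to it. In 4T1 KO cells 8 of 11 fell and 0 rose, and in EMT6 KO cells 6 rose and 0 fell. The shares of all tested genes were 29.0% lower and 28.0% higher in 4T1, and 27.9% higher and 28.2% lower in EMT6. All 3 SF3A genes fell in 4T1 and none was called in EMT6. Sf3a2 became called higher there with no low-count filter (0.18, adjusted p = 0.0265 by edgeR) or without KO replicate 3 (0.21, adjusted p = 0.0463). Sf3a2 had 39.2, 39.2 and 34.2 FPKM in 4T1 KO libraries, against 53.4, 51.3 and 51.0 FPKM in 4T1 control libraries, the largest fall of an snRNP gene whose libraries did not overlap (-0.55 ± 0.05, adjusted p = 9.02e-09 by edgeR). Sf3a3 had 25.1, 25.5 and 26.1 FPKM in 4T1 KO libraries, against 31.2, 30.2 and 29.4 FPKM in 4T1 control libraries (-0.33 ± 0.05, adjusted p = 7.77e-06 by edgeR), and Sf3a1 had 32.1, 30.7 and 31.1 FPKM in 4T1 KO libraries, against 33.4, 35.6 and 35.4 FPKM in 4T1 control libraries (-0.23 ± 0.05, adjusted p = 0.000158 by edgeR). In each of them all KO libraries were below all control libraries, though 16.1% of the exonic bases of Sf3a2 are overlapped on the opposite strand. Among SF3B genes, Sf3b1, the large scaffold that is recurrently mutated in human cancers, had 35.6, 35.9 and 35.2 FPKM in 4T1 KO libraries, against 40.8, 42.7 and 44.1 FPKM in 4T1 control libraries (-0.34 ± 0.04, adjusted p = 4.15e-07 by edgeR). In EMT6, Sf3b1 had 29.7, 29.7 and 32.2 FPKM in EMT6 KO libraries, against 26.3, 26.1 and 24.1 FPKM in EMT6 control libraries (0.26 ± 0.06, adjusted p = 0.00103 by edgeR), again without overlap but on the other side of control. Sf3b5, a small SF3B subunit, had the largest rise in EMT6 among U2 genes, with 15.8, 16.4 and 15.2 FPKM in EMT6 KO libraries, against 9.79, 10.8 and 9.63 FPKM in EMT6 control libraries (0.65 ± 0.07, adjusted p = 1.17e-06 by edgeR). In 4T1 it had 6.95, 7.06 and 7.18 FPKM in 4T1 KO libraries, against 8.06, 7.21 and 8.09 FPKM in 4T1 control libraries (-0.22 ± 0.07, adjusted p = 0.0151 by edgeR), a call that was lost without control replicate 1 (log2 change -0.20, adjusted p = 0.0621 by edgeR) and, at -0.12 to -0.15, with scaling to total counts alone, with genes of at least 5 FPKM and with limma on log2 FPKM (adjusted p = 0.0713 to 0.135). Sf3b3 was the 1 U2 gene called in neither line.

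The promoters of the 3 SF3A genes are shown because these genes fell together in 4T1. Each line gives the 250 bases before the RefSeq start (GRCm38.p6), on the gene's strand, and capitals mark CCGGAAG or its reverse complement, the core bound by ETS-family factors. The coordinates are chr11:4160104-4160353 (plus strand), chr10:80798485-80798734 (plus) and chr4:124714611-124714860 (plus).
Sf3a1: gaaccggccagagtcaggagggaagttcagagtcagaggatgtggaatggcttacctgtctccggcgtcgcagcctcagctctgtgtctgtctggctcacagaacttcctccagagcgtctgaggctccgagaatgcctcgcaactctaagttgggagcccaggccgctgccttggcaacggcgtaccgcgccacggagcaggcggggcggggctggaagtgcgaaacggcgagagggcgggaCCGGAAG
Sf3a2: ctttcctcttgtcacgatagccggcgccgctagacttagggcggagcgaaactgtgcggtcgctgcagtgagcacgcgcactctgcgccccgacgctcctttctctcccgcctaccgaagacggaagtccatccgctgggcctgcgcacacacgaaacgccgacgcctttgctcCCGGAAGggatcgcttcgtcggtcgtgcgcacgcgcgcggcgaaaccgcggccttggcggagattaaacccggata
Sf3a3: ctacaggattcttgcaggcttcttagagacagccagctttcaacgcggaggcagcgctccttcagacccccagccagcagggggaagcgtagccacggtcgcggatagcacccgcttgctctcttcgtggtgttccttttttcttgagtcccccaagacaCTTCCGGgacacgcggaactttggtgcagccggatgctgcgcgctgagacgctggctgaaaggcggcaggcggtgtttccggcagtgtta
All 3 hold the motif, on the plus strand in Sf3a1, where it ends at the base before the start, and in Sf3a2, and as its reverse complement in Sf3a3. Of the 11 U2-specific genes, 9 had a promoter entry and 7 of these (77.8%) held CCGGAAG on either strand, as did 19 of 66 matched splicing genes (28.8%). The share was 17.2% of the 8825 matched genes tested in both lines and 7.83% of all 27025 genes in the table. By class, 13 of 37 snRNP genes, 4 of 10 SR genes and 2 of 18 hnRNP genes held it. This motif was chosen after the values were seen, and Sf3b2 and Sf3b3, which did not fall in 4T1, hold it too. So do Srsf4 and Srsf11, which rose in 4T1, and Srsf5, which was not called. Srsf7 fell and holds it, whereas Sf3b1, Srsf1, Srsf2, Srsf3, Srsf6, Srsf9 and Srsf10 fell and do not. A link between the motif and the changes was not tested. The E-box CACGTG, which does not overlap with CCGGAAG, was found in 7 of the 66 genes (10.6%), against 10.2% of the genes tested in both lines. A match is a run of letters and not evidence of binding.

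The LSm2 to LSm8 proteins form the ring on U6 RNA. In 4T1 KO cells 4 of the 7 genes fell (Lsm3, Lsm4, Lsm6 and Lsm8), and in EMT6 KO cells 5 rose (Lsm2, Lsm3, Lsm5, Lsm6 and Lsm8). Falls were called for 29.0% of all tested genes in 4T1, and rises for 27.9% in EMT6. Lsm6 had 13.8, 13.4 and 12.5 FPKM in 4T1 KO libraries, against 18.5, 15.7 and 17.2 FPKM in 4T1 control libraries (-0.45 ± 0.06, adjusted p = 1.15e-06 by edgeR). Its EMT6 levels were 18.3, 18.2 and 19.1 FPKM in EMT6 KO libraries, against 12.5, 13.5 and 10.4 FPKM in EMT6 control libraries (0.62 ± 0.08, adjusted p = 1.59e-05 by edgeR), and the difference between the lines was 1.04 ± 0.11, adjusted p = 4.78e-08 by edgeR. The KO libraries were thus all below control in 4T1 and all above control in EMT6, although 3 other genes share stretches of at least 200 bases with Lsm6 at 95% identity or more. Lsm4 had 38.4, 44.7 and 41.4 FPKM in 4T1 KO libraries, against 56.3, 52.4 and 61.5 FPKM in 4T1 control libraries (-0.53 ± 0.07, adjusted p = 2.67e-07 by edgeR), and in EMT6 its log2 change of 0.02 did not pass. Lsm2 was higher in EMT6, with 27.4, 25.9 and 25.9 FPKM in EMT6 KO libraries, against 19.2, 19.5 and 14.6 FPKM in EMT6 control libraries (0.58 ± 0.10, adjusted p = 0.000243 by edgeR), and in 4T1 its libraries overlapped. Lsm5 had the largest fitted rise in EMT6 (1.00 ± 0.25, adjusted p = 0.00367 by edgeR), with 9.04, 6.58 and 10.2 FPKM in EMT6 KO libraries, against 6.35, 3.8 and 3.02 FPKM in EMT6 control libraries. Lsm5 too shares such stretches, with 2 other genes, so its values are uncertain. Its libraries were far apart, in 4T1 most of all, with 4.33, 5.39 and 4.66 FPKM in 4T1 KO libraries, against 3.83, 2.28 and 7.37 FPKM in 4T1 control libraries, and the difference between the lines was not called (0.94 ± 0.48, adjusted p = 0.109 by edgeR). It became called without 4T1 control replicate 2 (1.25, adjusted p = 0.0154 by edgeR) or without EMT6 control replicate 1 (1.27, adjusted p = 0.0236), and when low-count genes were kept (1.02, adjusted p = 0.00144).

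Of 6 LSm genes outside the U6 ring, 2 fell and 1 rose in 4T1, and 3 fell and 0 rose in EMT6. Among all tested genes, 29.0% fell and 28.0% rose in 4T1, and 28.2% fell and 27.9% rose in EMT6. The share of falls in 4T1 (33.3%) was near that of all tested genes. Lsm1, which replaces LSm8 in the cytoplasmic ring that promotes mRNA decapping, fell in both lines. It had 9.4, 10.5 and 10.3 FPKM in 4T1 KO libraries, against 12.6, 12.2 and 14.01 FPKM in 4T1 control libraries (-0.44 ± 0.07, adjusted p = 1.19e-05 by edgeR). In EMT6 it had 8.65, 8.11 and 8.44 FPKM in EMT6 KO libraries, against 10.8, 11.2 and 11.8 FPKM in EMT6 control libraries (-0.43 ± 0.08, adjusted p = 0.000198 by edgeR). The groups did not overlap in either line, and the difference of the KO effects was -0.01. Lsm12 also fell in both, by 0.42 in 4T1 and by 0.23 in EMT6 on the log2 scale, and has a near-identical processed pseudogene. Its difference between the lines was called with no low-count filter (0.26) or without 4T1 KO replicate 2 (0.24) and not otherwise. Lsm14b, a component of cytoplasmic messenger ribonucleoprotein granules, had 30.5, 33.6 and 30.4 FPKM in 4T1 KO libraries, against 18.9, 20.8 and 23.4 FPKM in 4T1 control libraries (0.51 ± 0.07, adjusted p = 9.22e-07 by edgeR) and did not pass in EMT6, where its log2 change was 0.13 and became a call without control replicate 3 (0.14, adjusted p = 0.0415 by edgeR). Lsm11, an LSm protein of the U7 particle that processes histone mRNA ends, was lower in EMT6 KO cells (-0.30 ± 0.11, adjusted p = 0.0273 by edgeR), while its U7 partner Lsm10 was called in neither line.

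Of the 5 PRPF genes of the U4/U6.U5 tri-snRNP, 3 fell and 1 rose in EMT6, where 28.2% of all tested genes fell and 27.9% rose. Prpf8, the U5 scaffold around the catalytic centre, had 80.96, 76.4 and 82.02 FPKM in EMT6 KO libraries, against 121, 119 and 111 FPKM in EMT6 control libraries, with every KO library below every control library (-0.55 ± 0.06, adjusted p = 5.65e-07 by edgeR). In 4T1 it had 91.1, 90.2 and 85.8 FPKM in 4T1 KO libraries, against 88.2, 96.4 and 93.9 FPKM in 4T1 control libraries, with overlapping groups, and a call (-0.14 ± 0.05, adjusted p = 0.0129 by edgeR) that was lost without KO replicate 3 (-0.11, adjusted p = 0.0636 by edgeR), without control replicate 2 (-0.10, adjusted p = 0.0799) and, at -0.06 to -0.08, with scaling to total counts alone, with genes of at least 5 FPKM and with limma on log2 FPKM (adjusted p = 0.17 to 0.298). Prpf6, another U5 protein, was lower in EMT6 (-0.17 ± 0.06, adjusted p = 0.0222 by edgeR), and Prpf3 of U4/U6 was lower in both lines, by 0.27 in 4T1 and by 0.20 in EMT6 on the log2 scale. The EMT6 call of Prpf3 was lost without KO replicate 1 (-0.20, adjusted p = 0.0512 by edgeR) or KO replicate 3 (-0.18, adjusted p = 0.0531), and when low-count genes were kept (-0.17, adjusted p = 0.0691). Prpf31, which joins U4/U6 to U5, was the 1 tri-snRNP gene of the rule that rose in EMT6 (0.33 ± 0.06, adjusted p = 0.00026 by edgeR). For Prpf31, 18.1% of the exonic bases are overlapped on the opposite strand. Prpf19, the ubiquitin ligase of the complex that activates the spliceosome, had 27.1, 26.4 and 25.5 FPKM in 4T1 KO libraries, against 32.2, 31.8 and 32.96 FPKM in 4T1 control libraries (-0.38 ± 0.04, adjusted p = 1.21e-07 by edgeR). In EMT6, Prpf19 had 21.8, 22.1 and 21.4 FPKM in EMT6 KO libraries, against 16.8, 17.3 and 16.6 FPKM in EMT6 control libraries (0.37 ± 0.05, adjusted p = 2.29e-05 by edgeR). Its libraries were closely grouped and did not overlap in either line. Prpf38b had 29.3, 31.2 and 28.2 FPKM in EMT6 KO libraries, against 45.2, 40.3 and 41.4 FPKM in EMT6 control libraries, a fall without overlap (-0.51 ± 0.06, adjusted p = 1.49e-06 by edgeR), and in 4T1 its log2 change was 0.01.

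**Figure D4:**
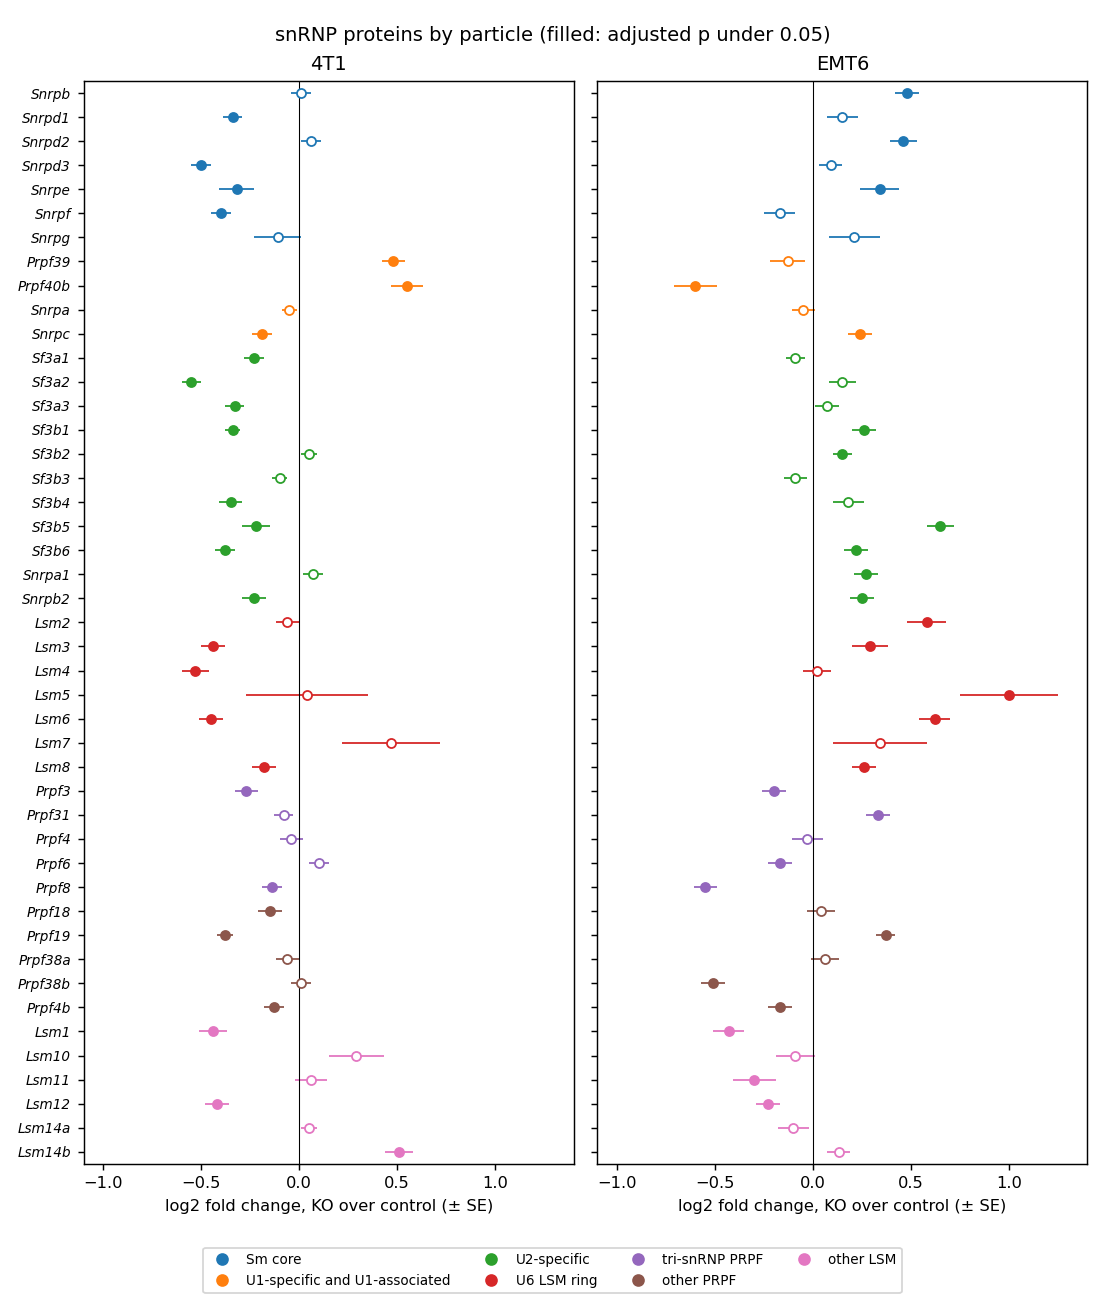
Log2 fold change of KO over control with 1 SE from edgeR for 45 of the 47 snRNP genes, coloured by particle, in 4T1 (left) and EMT6 (right); filled points passed an adjusted p of 0.05. Filled points of the Sm core, U2 and the U6 LSm ring lie left of 0 in 4T1 and right of 0 in EMT6, while Prpf8, Prpf38b, Prpf40b and Lsm1 lie left of 0 in EMT6.

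SR proteins carry an RNA recognition motif and a domain rich in arginine and serine. Srsf2, which binds exonic enhancers, had the largest difference between the lines among SR genes and was the most abundant SR transcript in both. It had 90.4, 85.4 and 76.9 FPKM in 4T1 KO libraries, against 119, 113 and 129 FPKM in 4T1 control libraries (-0.59 ± 0.06, adjusted p = 6.23e-08 by edgeR). In EMT6, Srsf2 had 131, 129 and 130.2 FPKM in EMT6 KO libraries, against 95.3, 98.1 and 92.04 FPKM in EMT6 control libraries (0.45 ± 0.05, adjusted p = 2.09e-06 by edgeR). Each KO library was below every control library in 4T1 and above every control library in EMT6, and the difference was 1.02 ± 0.08, adjusted p = 2.32e-10 by edgeR, although 25.3% of the exonic bases of Srsf2 are overlapped on the opposite strand. Srsf6 moved the same way, with 37.4, 35.2 and 35.4 FPKM in 4T1 KO libraries, against 45.1, 41.8 and 43.5 FPKM in 4T1 control libraries (-0.35 ± 0.05, adjusted p = 5.63e-07 by edgeR). Its EMT6 levels were 58.7, 58.2 and 57.6 FPKM in EMT6 KO libraries, against 44.5, 42.8 and 44.6 FPKM in EMT6 control libraries (0.41 ± 0.05, adjusted p = 4.16e-06 by edgeR). It has neither a near-identical copy nor an overlapping exon. Srsf3, the smallest family member, rose in EMT6 (0.46 ± 0.06, adjusted p = 7.54e-06 by edgeR), with 45.9, 46.2 and 47.3 FPKM in EMT6 KO libraries, against 31.3, 36.2 and 33.9 FPKM in EMT6 control libraries, and fell by 0.21 in 4T1 on the log2 scale. Srsf1, the first SR protein to be characterised, had 59.8, 58.4 and 52.3 FPKM in 4T1 KO libraries, against 77.5, 76.3 and 80.9 FPKM in 4T1 control libraries (-0.54 ± 0.05, adjusted p = 1.95e-09 by edgeR), and its log2 change of 0.12 in EMT6 did not pass the test. It passed once genes of low count were kept (0.15, adjusted p = 0.0461 by edgeR). Srsf9 fell in 4T1 (-0.31 ± 0.05, adjusted p = 6.34e-06 by edgeR). Its EMT6 rise (0.20 ± 0.07, adjusted p = 0.0239 by edgeR) was lost without KO replicate 1 (0.19, adjusted p = 0.0833 by edgeR), KO replicate 2 (0.18, adjusted p = 0.107) or control replicate 1 (0.14, adjusted p = 0.106). Srsf7 and Srsf10 fell in 4T1 alone by call, by 0.28 and by 0.17 on the log2 scale, and their differences between the lines were called too (0.37 and 0.24). Srsf11 and Srsf4 rose in 4T1. Srsf11 had 34.6, 34.1 and 33.4 FPKM in 4T1 KO libraries, against 29.3, 28.2 and 28.9 FPKM in 4T1 control libraries (0.16 ± 0.04, adjusted p = 0.00233 by edgeR), and its difference between the lines (-0.21 ± 0.07, adjusted p = 0.0158 by edgeR) was lost without EMT6 KO replicate 3 (-0.16, adjusted p = 0.0719 by edgeR) or EMT6 control replicate 2 (-0.17, adjusted p = 0.055). It was also lost when genes of low count were kept (-0.13, adjusted p = 0.296 by edgeR). The Srsf4 rise (0.18 ± 0.07, adjusted p = 0.0278 by edgeR) was lost on leaving out any 4T1 library but control replicate 2 (0.16 to 0.18, adjusted p = 0.0514 to 0.0965 by edgeR). It was also lost when low-count genes were kept (0.15, adjusted p = 0.137 by edgeR) and with DESeq2 (0.18, adjusted p = 0.0594). For Srsf4, 43.0% of the exonic bases are overlapped on the opposite strand. Srsf5 was called in neither line. It became called lower in 4T1 with no low-count filter (-0.12, adjusted p = 0.0477 by edgeR) or without KO replicate 1 (-0.12, adjusted p = 0.043).

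The hnRNP genes held the largest opposite change of the 79. Hnrnpa0, which binds AU-rich elements of mRNAs, had 54.7, 55.04 and 51.6 FPKM in 4T1 KO libraries, against 79.7, 81.6 and 85.5 FPKM in 4T1 control libraries. Hnrnpa0 in EMT6 had 138, 142 and 157 FPKM in EMT6 KO libraries, against 76.7, 80.7 and 76.1 FPKM in EMT6 control libraries. Control libraries of both lines lay between 76.1 and 85.5 FPKM, and KO libraries were all lower than control in 4T1 and all higher in EMT6. The log2 change was -0.69 ± 0.05, adjusted p = 1.32e-11 by edgeR in 4T1 and 0.90 ± 0.06, adjusted p = 2.97e-09 by edgeR in EMT6, and the difference between the lines was 1.58 ± 0.08, adjusted p = 5.47e-14 by edgeR. The gene has no near-identical copy and no overlapping exon in the annotation used. Its relative Hnrnpa1, which binds exonic and intronic silencers, went the other way. Hnrnpa1 had 77.8, 76.9 and 77.7 FPKM in 4T1 KO libraries, against 65.9, 67.8 and 70.1 FPKM in 4T1 control libraries. In EMT6 it had 77.3, 76.5 and 82.4 FPKM in EMT6 KO libraries, against 99.4, 92.95 and 106 FPKM in EMT6 control libraries, with no overlap in either line. Its fall in EMT6 (-0.33 ± 0.06, adjusted p = 0.000117 by edgeR) and the difference between the lines (-0.47 ± 0.07, adjusted p = 4.92e-06 by edgeR) were called, whereas the 4T1 rise (0.11 ± 0.04, adjusted p = 0.0337 by edgeR) was lost without any 1 of the 3 KO replicates or control replicate 1 (0.09 to 0.11, adjusted p = 0.0552 to 0.154 by edgeR). Keeping genes of low count lost it too (0.08, adjusted p = 0.225 by edgeR). Long near-identical stretches are shared with 5 other genes, so the Hnrnpa1 values are uncertain.

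**Figure D5:**
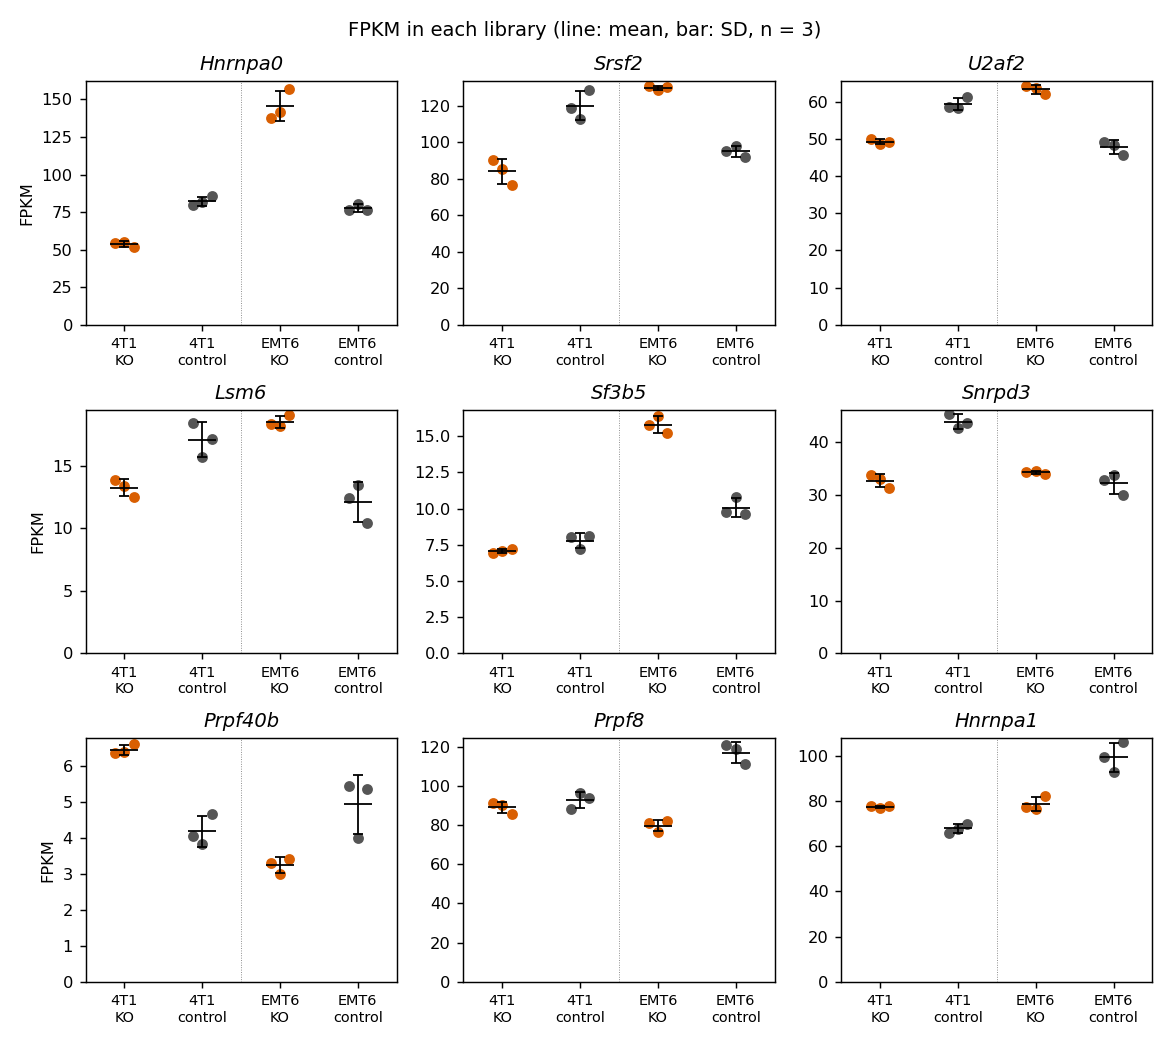
FPKM in each library (points) of 9 genes, with mean and SD (n = 3), in KO (orange) and control (grey) cells of 4T1 and EMT6. Hnrnpa0, Srsf2, U2af2, Lsm6 and Sf3b5 have KO libraries below control in 4T1 and above control in EMT6, and Prpf40b and Hnrnpa1 have the reverse.

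Hnrnpab, the most abundant of the 79 transcripts in each line, had 275, 259 and 249.6 FPKM in 4T1 KO libraries, against 384, 378 and 379 FPKM in 4T1 control libraries (-0.62 ± 0.04, adjusted p = 3.57e-11 by edgeR), and its EMT6 libraries overlapped. On the opposite strand, exons of other genes overlap 29.1% of the exonic bases of Hnrnpab. A call of higher in EMT6 was found with no low-count filter (0.15, adjusted p = 0.0466 by edgeR) or without control replicate 2 (0.17, adjusted p = 0.0238) and not otherwise. Hnrnpm had 35.9, 36.6 and 32.4 FPKM in 4T1 KO libraries, against 49.3, 50.4 and 45.9 FPKM in 4T1 control libraries (-0.55 ± 0.05, adjusted p = 5.79e-09 by edgeR). In EMT6, Hnrnpm had 45.5, 46.2 and 46.5 FPKM in EMT6 KO libraries, against 40.2, 38.8 and 37.3 FPKM in EMT6 control libraries (0.25 ± 0.05, adjusted p = 0.000646 by edgeR), though exons of another gene overlap 14.7% of its exonic bases on the same strand. Hnrnpd, the AU-rich element binding protein AUF1, fell in 4T1 (-0.43 ± 0.05, adjusted p = 2.34e-07 by edgeR) and rose in EMT6 (0.34 ± 0.06, adjusted p = 0.0001 by edgeR). Hnrnpk, a poly(C)-binding protein, did likewise, by -0.33 ± 0.04, adjusted p = 2.83e-07 by edgeR and 0.27 ± 0.05, adjusted p = 0.000413 by edgeR, without overlap in either line. Hnrnpu, a nuclear scaffold protein, fell in 4T1 (-0.45 ± 0.05, adjusted p = 8.02e-08 by edgeR), and its EMT6 rise (0.15 ± 0.05, adjusted p = 0.0287 by edgeR) was lost without any KO replicate or without control replicate 3 (0.11 to 0.16, adjusted p = 0.0591 to 0.126 by edgeR). Hnrnpf and Hnrnpa2b1 fell in 4T1, by 0.42 and by 0.32 on the log2 scale, and neither was called in EMT6. Both calls of the difference between the lines were positive (0.43 and 0.40). Hnrnpf shares long stretches with 10 other genes, and 26.5% of its exonic bases are overlapped on the opposite strand.

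A few hnRNP genes moved the same way in both lines. Hnrnph2, an X-linked binder of guanine runs, had 22.6, 22.7 and 20.99 FPKM in 4T1 KO libraries, against 18.1, 18.2 and 17.3 FPKM in 4T1 control libraries (0.22 ± 0.05, adjusted p = 0.000958 by edgeR). Its EMT6 levels were 25.1, 27.4 and 26.4 FPKM in EMT6 KO libraries, against 20.3, 21.2 and 19.5 FPKM in EMT6 control libraries (0.38 ± 0.06, adjusted p = 6e-05 by edgeR). Hnrnpul1 rose by 0.24 ± 0.05, adjusted p = 8.52e-05 by edgeR in 4T1 and by 0.17 ± 0.06, adjusted p = 0.0151 by edgeR in EMT6, where the call was lost without KO replicate 1 (0.15, adjusted p = 0.0961 by edgeR) or KO replicate 2 (0.17, adjusted p = 0.0661). Hnrnpc, which binds uridine tracts, fell by 0.30 in 4T1 and by 0.17 in EMT6 on the log2 scale, and the EMT6 call was lost without KO replicate 2 (-0.15, adjusted p = 0.0661 by edgeR) and when low-count genes were kept (-0.13, adjusted p = 0.11). None of these 3 had a called difference between the lines.

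The U2AF heterodimer marks the 3′ splice site, and its large subunit alone was called. U2af2, the large subunit that binds the polypyrimidine tract, had 49.96, 48.8 and 49.1 FPKM in 4T1 KO libraries, against 58.5, 58.4 and 61.3 FPKM in 4T1 control libraries (-0.35 ± 0.04, adjusted p = 2.68e-07 by edgeR). U2af2 in EMT6 had 64.4, 63.8 and 62.1 FPKM in EMT6 KO libraries, against 49.2, 48.5 and 45.6 FPKM in EMT6 control libraries (0.41 ± 0.05, adjusted p = 6.95e-06 by edgeR). The groups did not overlap in either line, and the difference was 0.74 ± 0.07, adjusted p = 1.61e-09 by edgeR, although a processed pseudogene shares 1432 bases with U2af2 at 96.1% identity. U2af1, the small subunit that reads the terminal AG, had 15.5, 17.97 and 16.1 FPKM in 4T1 KO libraries, against 16.3, 17.3 and 17.02 FPKM in 4T1 control libraries. In EMT6, U2af1 had 15.7, 16.9 and 16.3 FPKM in EMT6 KO libraries, against 17.8, 14.4 and 16.8 FPKM in EMT6 control libraries. Those groups overlapped in both lines, and the log2 changes (-0.11 ± 0.07, adjusted p = 0.173 by edgeR in 4T1 and 0.00 ± 0.08, adjusted p = 0.978 by edgeR in EMT6) did not pass the test.

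The 20 genes called lower in 4T1 and higher in EMT6 were Hnrnpa0, Hnrnpd, Hnrnpk, Hnrnpm, Hnrnpu, Lsm3, Lsm6, Lsm8, Prpf19, Sf3b1, Sf3b5, Sf3b6, Snrpb2, Snrpc, Snrpe, Srsf2, Srsf3, Srsf6, Srsf9 and U2af2. They span U1, U2, the Sm and LSm rings, SR and hnRNP proteins. Genes lower in both lines were Hnrnpc, Lsm1, Lsm12, Prpf3, Prpf4b and Prpf8. Among the 14 called in neither line were Hnrnph3, Hnrnpl, Hnrnpr, Lsm7, Lsm10, Lsm14a, Prpf4, Prpf38a, Sf3b3, Snrpa, Snrpg, Srsf5 and U2af1.

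Splicing genes outside the symbol rule were counted by role from a list of 94. In 4T1 KO cells 9 of 14 genes for snRNP assembly and import (64.3%) fell and 1 (7.14%) rose, where 29.0% of all tested genes fell and 28.0% rose. Named there were the SMN complex genes Gemin4 at -0.97 ± 0.22 and Smn1 at -0.70 ± 0.07, and Gemin8 higher at 0.41 ± 0.13. In EMT6 4 of these 14 (28.6%) fell and 3 (21.4%) rose, near the 28.2% and 27.9% of all tested genes. Gemin4 fell there too (-0.89 ± 0.33). Its level was low, with means of 0.583 FPKM in 4T1 KO libraries, against 1.09 FPKM in 4T1 control libraries, and 0.36 FPKM in EMT6 KO libraries, against 0.65 FPKM in EMT6 control libraries. Smn1 rose in EMT6 (0.27 ± 0.07), and Sart3, the factor that recycles U4/U6, fell in 4T1 (-0.34 ± 0.05) and rose in EMT6 (0.56 ± 0.06). Of 20 genes for catalytic activation, 12 (60%) fell and 1 (5%) rose in 4T1, and 9 (45%) rose and 7 (35%) fell in EMT6. Bud31 had the largest fall in 4T1 (-0.60 ± 0.06), Ddx41 the largest rise in EMT6 (0.53 ± 0.06), and Slu7, a second-step factor, the largest fall in EMT6 (-0.72 ± 0.09). Bud31 rose in EMT6 (0.35 ± 0.06), Ddx41 fell in 4T1 (-0.42 ± 0.07), and Slu7 fell in 4T1 too (-0.35 ± 0.06).

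Genes of SR-related proteins and SR kinases had calls in both directions. In 4T1, 5 of 14 (35.7%) rose and 6 (42.9%) fell, and in EMT6, 1 (7.14%) rose and 9 (64.3%) fell. All tested genes had 28.0% higher and 29.0% lower in 4T1, and 27.9% higher and 28.2% lower in EMT6. All 4 CLK kinase genes, whose products phosphorylate SR proteins, fell in EMT6, with Clk1 at -0.34 ± 0.08, Clk2 at -0.50 ± 0.09, Clk3 at -0.69 ± 0.06 and Clk4 at -0.92 ± 0.09. In 4T1, Clk1 fell (-0.63 ± 0.06), Clk3 rose (0.31 ± 0.06), and Clk2 (0.09 ± 0.05) and Clk4 (-0.01 ± 0.06) did not pass the test. The kinase gene Srpk2 rose in 4T1 (0.58 ± 0.05) and fell in EMT6 (-0.48 ± 0.07). Of 20 other snRNP genes, 3 (15%) rose and 7 (35%) fell in 4T1, the share of falls near the 29.0% of all tested genes. Among them were the U1 gene Snrnp70 (0.33 ± 0.05) and the U5 GTPase gene Eftud2 (-0.47 ± 0.05). In EMT6, 2 (10%) rose and 1 (5%) fell, where the fall was Eftud2 (-0.28 ± 0.06). Among 26 other regulators, 3 (11.5%) rose and 9 (34.6%) fell in 4T1, and of the 25 tested in EMT6 10 (40%) rose and 7 (28%) fell. Their shares of falls were near those of all tested genes (29.0% in 4T1 and 28.2% in EMT6). Ptbp2 rose in 4T1 (0.55 ± 0.07) and fell in EMT6 (-0.51 ± 0.08), and its paralogue Ptbp1 fell in 4T1 (-0.53 ± 0.04) and rose in EMT6 (0.39 ± 0.07). Sfpq fell in 4T1 (-0.49 ± 0.09) and rose in EMT6 (0.45 ± 0.07), Raly, an hnRNP C relative, rose in EMT6 (0.67 ± 0.06), and Esrp2, an epithelial splicing regulator, fell in EMT6 (-1.47 ± 0.16). Raly and Esrp2 did not pass in 4T1.

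All 79 genes passed the filter on low counts in each fit. The genes nearest the 1 FPKM limit were U2af1l4 outside it, at 0.767 FPKM in 4T1 and 0.952 FPKM in EMT6, and Lsm7 inside it, at 1.5 FPKM in 4T1 and 1.45 FPKM in EMT6. The other 4 genes left out by level were Srsf12, Snrpn, Lsmem1 and Lsmem2. Near-identical sequence limits many of these values, since 35 of the 79 genes share a stretch of at least 200 bases at 95% identity or more with another annotated gene, Hnrnpab, Hnrnpc, Hnrnpd, Hnrnph2, Hnrnpk and Srsf3 among them, and how such reads were counted is unknown here. Among the 43 genes with neither such a stretch nor an exon overlap over 10%, 24 (55.8%) were lower and 4 (9.3%) higher in 4T1 KO cells, against 29.0% and 28.0% of all tested genes. In EMT6 KO cells 17 of the 43 (39.5%) were higher and 8 (18.6%) lower, against 27.9% and 28.2% of all tested genes.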

How the data were processed

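Tools named in the submitters' processing notes are cutadapt 1.9.1, HISAT2 2.2.1, HTSeq 0.6.1 and DESeq2, with the genome GRCm38, and no role is stated for each. Libraries were prepared by mRNA capture on beads, per the labels' protocols. The deposited table of each line holds raw read counts and FPKM, in which the authors scaled counts by exonic gene size and library total (recomputed within 0.005 FPKM). Gene coordinates in the tables differ from GENCODE M21, the annotation used here, and are not printed. No source used here states the strand setting or the counting of multi-mapping reads.

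Counts were fitted in R 4.3.3 with edgeR 4.0.16 in each line (filterByExpr, TMM, robust quasi-likelihood test, Benjamini-Hochberg over all tested genes, threshold 0.05), and in 1 fit of 12 libraries for the difference between lines. SE is the log2 change over the square root of F. Because FPKM are scaled to totals, log2 changes in 4T1 lie about 0.08 below FPKM ratios. A floor of 3 counts is 0.152 to 0.219 CPM and covers counting error alone. edgeR's biological coefficient of variation came to 4.82% for 4T1 and 6.73% for EMT6. Replicates differed beyond sampling noise (chi-square per degree of freedom 2.45 to 11.8), and none were identical. The value was highest, at 11.8, for the EMT6 control pairs with replicate 3. In 4T1 it was highest for the control pairs with replicate 2 (7.66 and 8.42). The fits were tested on simulated data.

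Shared stretches of at least 200 bases at 95% identity were sought with minimap2 among M21 transcripts of other genes, those at the same locus included. Promoters are RefSeq entries matched by symbol, 66 of 79. Alternatives were DESeq2 1.42.0, limma 3.58.1, other scalings and filters, a replicate block and single libraries left out. The genes and lists were chosen with earlier results of these data known, and the roles of the 79 genes were assigned after their values were seen. Genes named are, per line and class, up to 4 called higher and 4 lower with the largest changes and no overlap between groups, the 3 of highest level, those with opposite or shared calls, and up to 2 higher and 2 lower per role of the other list; other genes were named after their values were seen. A result each for 1 splicing gene and 1 marker is not reported here.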

Additional observations from a re-analysis of the deposited data

Results flagged for a closer look

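The KO effect differed between the lines by the edgeR test of the difference itself for 29 of the genes named by the rule. That rule picked large changes and opposite calls, so the count is no result about the splicing genes. Of all tested genes, 59.9% had a called difference in either direction. All values are the log2 change in EMT6 minus the log2 change in 4T1, at an adjusted p under 0.05 over 12006 genes. Among snRNP genes the difference was positive for Lsm2 (0.62), Lsm4 (0.53), Lsm6 (1.04), Prpf19 (0.72), Sf3a2 (0.67), Sf3b5 (0.85), Snrpb (0.44) and Snrpd3 (0.58), and negative for Lsm14b (-0.40), Prpf38b (-0.55), Prpf39 (-0.62), Prpf40b (-1.17) and Prpf8 (-0.43). Among SR genes it was positive for Srsf1 (0.63), Srsf2 (1.02), Srsf3 (0.65), Srsf6 (0.74) and Srsf9 (0.49), and negative for Srsf11 (-0.21). Among hnRNP genes it was positive for Hnrnpa0 (1.58), Hnrnpa2b1 (0.40), Hnrnpab (0.71), Hnrnpd (0.75), Hnrnpf (0.43), Hnrnpk (0.58), Hnrnpm (0.78) and Hnrnpu (0.58), and negative for Hnrnpa1 (-0.47). For U2af2 it was 0.74.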

How the results depend on the processing

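No result changed direction while called. With scaling to total counts, with genes of at least 5 FPKM, with limma on log2(FPKM + 1) and on log2(FPKM + 0.1), the splicing genes called higher in 4T1 numbered 16, 16, 14 and 14 in place of 8, the snRNP genes 9, 9, 7 and 7 in place of 3, and the hnRNP genes 5 in each in place of 3. Of all tested genes, 4658 of 13313, 2445 of 7681, 3644 of 11461 and 3625 of 11461 were called higher in turn. In the fit used throughout, 3725 of 13313 were. SR genes called higher in 4T1 numbered 1 in place of 2 with DESeq2 and with no low-count filter. These settings called 3357 of 13313 and 3680 of 26210 tested genes higher in 4T1. With no filter, splicing genes called lower in EMT6 numbered 6 in place of 11 (snRNP 5 in place of 9, hnRNP 1 in place of 2). Of all tested genes, 3398 of 23721 were then lower in EMT6, in place of 3633 of 12890. SR genes with a negative difference between lines numbered 2 with total counts and 0 with no filter, in place of 1, and hnRNP genes 2 with total counts, in place of 1. All tested genes with a negative difference numbered 3994 of 12006 with total counts and 3561 of 28371 with no filter. In the fit used throughout they numbered 3629 of 12006. The cause was not tested. Counting the 43 genes without shared stretches or overlaps (chosen after seeing the data), 4 were higher and 24 lower in 4T1, 17 higher and 8 lower in EMT6, and 21 had a positive and 7 a negative difference, with fewer genes by construction. Among all tested genes, 28.0% were higher and 29.0% lower in 4T1, and 27.9% higher and 28.2% lower in EMT6. The difference was positive for 29.7% and negative for 30.2% of all tested genes. Leaving out 1 library at a time gave 6 to 8 higher and 41 to 43 lower in 4T1, 27 to 35 higher and 8 to 12 lower in EMT6, and differences of 38 to 42 positive and 7 to 10 negative. By class these ranges were 3 to 5 snRNP and 1 to 2 SR genes higher in 4T1, 1 to 2 hnRNP genes lower in EMT6, and 0 to 2 SR genes with a negative difference. Libraries with the same number did not deviate together (r from -0.145 to 0.018). No shared effect of the number was visible, which cannot show whether the libraries were made in pairs. With the replicate block 8 splicing genes were higher and 44 lower in 4T1, 32 higher and 12 lower in EMT6, and 40 differences were positive and 9 negative. Of all tested genes, the block gave 3746 higher and 3930 lower in 4T1 (of 13313). In EMT6 it gave 3400 higher and 3430 lower (of 12890). Positive differences numbered 3485 and negative ones 3512 of 12006. The edgeR call of Hnrnpu in EMT6 was lost under the block (0.15), and Snrpf was gained there (-0.17). Precision was lowest for Lsm5 and Lsm7, with SEs of 0.24 to 0.31 on the log2 scale within a line and 0.34 to 0.48 for the difference between lines.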
